A study of Mus musculus with 24 samples.

Results

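The interferon response genes examined here were 35 mouse genes named by symbol, among 35191 genes in a table of RNA sequencing counts from the pituitary. All 35 were found by their Ensembl identifiers and all 35 passed the filter on low counts. The 24 libraries formed 8 groups of 3, with 4 genotypes in each sex. Egr1cKO carried floxed Egr1 together with Cre, and Egr1cKO control carried floxed Egr1 without Cre. Cre control carried Cre with unfloxed Egr1, and wild type carried neither. The labels give pituitary as the tissue and endocrine as the cell type of every library. They state neither the age and strain of the mice nor the promoter that drives Cre. Egr1, an immediate early transcription factor, was not lower in Egr1cKO, with log2 fold changes of 1.83 in females (standard error 1.26 and edgeR adjusted p = 0.468) and 1.79 in males (standard error 1.25 and edgeR adjusted p = 0.886). A count over the whole gene does not show the loss of an exon.

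Interferons are cytokines that cells release when sensors in the cytoplasm or the endosome meet foreign nucleic acid. Type I interferon receptors activate a transcription factor complex that contains STAT2 and IRF9 and binds the interferon-stimulated response element (ISRE), and type II interferon acts mainly at the gamma-activated site (GAS). The genes they switch on encode nucleic acid sensors, antiviral proteins, GTPases that attack pathogen vacuoles and parts of the antigen presentation machinery. Many of these genes keep a basal level in tissues without infection.

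The promoters of 4 members that changed are shown because each holds an ISRE core close to the transcription start. The windows run from 250 bases before to 50 bases after the start site in RefSeq on GRCm38.p6, and each is printed on the strand of its gene. Capitals mark the ISRE core, GAAANNGAAA, or its reverse, TTTCNNTTTC. Gbp7 (chr3:142530086-142530385, plus strand) and Gbp3 (chr3:142559794-142560093, plus strand) encode guanylate-binding proteins. Irgm2 (chr11:58214727-58215026, plus strand) encodes an immunity-related GTPase, and Ifih1 (chr2:62646206-62646505, minus strand) encodes MDA5, a sensor of long double-stranded RNA.
Gbp7: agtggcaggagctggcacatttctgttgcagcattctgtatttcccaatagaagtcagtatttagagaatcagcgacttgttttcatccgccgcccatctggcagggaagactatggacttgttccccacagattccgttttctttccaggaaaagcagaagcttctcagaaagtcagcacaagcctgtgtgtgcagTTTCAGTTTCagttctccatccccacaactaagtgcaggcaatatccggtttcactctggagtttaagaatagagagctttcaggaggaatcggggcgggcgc
Gbp3: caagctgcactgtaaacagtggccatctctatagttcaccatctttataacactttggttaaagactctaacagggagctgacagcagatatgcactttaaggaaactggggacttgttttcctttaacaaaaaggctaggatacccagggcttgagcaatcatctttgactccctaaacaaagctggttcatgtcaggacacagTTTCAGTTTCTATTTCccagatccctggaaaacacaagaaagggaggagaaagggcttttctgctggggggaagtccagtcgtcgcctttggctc
Irgm2: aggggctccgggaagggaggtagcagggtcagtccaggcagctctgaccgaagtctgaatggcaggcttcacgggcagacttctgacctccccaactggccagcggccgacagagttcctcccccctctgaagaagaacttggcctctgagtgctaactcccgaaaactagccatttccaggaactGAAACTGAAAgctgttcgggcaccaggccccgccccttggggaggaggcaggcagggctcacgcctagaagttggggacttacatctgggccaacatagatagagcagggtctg
Ifih1: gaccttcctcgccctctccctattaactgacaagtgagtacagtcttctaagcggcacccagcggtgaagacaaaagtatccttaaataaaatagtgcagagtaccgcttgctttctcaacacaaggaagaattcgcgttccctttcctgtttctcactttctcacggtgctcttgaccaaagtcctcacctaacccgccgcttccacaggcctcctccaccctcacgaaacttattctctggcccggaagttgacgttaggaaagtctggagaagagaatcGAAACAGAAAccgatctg
The core began 53 bases before the start site in Gbp7 and 64 bases before it in Irgm2. Gbp3 held a pair of overlapping cores, which began 45 and 39 bases before the start. In Ifih1 the core began at base 33 after the start. RefSeq windows were matched for 27 of the 35 members, and Iigp1 was not among them. The ISRE core occurred in 16 of those 27 (59.3%), against 3.99% of all 27025 genes with a window. These were B2m, Bst2, Ddx58, Gbp2, Gbp3, Gbp7, Ifih1, Ifit1, Ifit3, Igtp, Irgm1, Irgm2, Isg15, Oas1a, Rsad2 and Stat2. The GAS core, TTCNNNGAA, which reads the same on both strands and can share bases with an ISRE core, occurred in 9 of the 27 (33.3%), against 9.55% of all genes. A match describes the letters of a window and does not show that a factor binds there.

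All members were detected at basal levels, and none was at 0 in more than 1 library. Levels are CPM, the counts scaled to a common library size, on library totals scaled by TMM, and genes were set against each other only per kilobase of exon. B2m, the light chain of MHC class I, was the most abundant at 323 CPM per kilobase over all libraries. Ifi27, which encodes a small interferon-induced membrane protein, followed at 112 CPM per kilobase. Bst2, or tetherin, which holds budding virus at the cell surface, came next at 21.8 CPM per kilobase. The lowest was Mx1, a dynamin-like antiviral GTPase, at 0.557 CPM per kilobase, and it had no count in female Egr1cKO replicate 1. Isg15, the ubiquitin-like modifier, ranged from 0.499 to 15.3 CPM between single libraries. The interferon genes themselves had few counts and did not pass the filter. Ifnb1, Ifna2 and Ifna4 each had counts in 1 library, Ifng in 3, and Ifnk and Ifnz in 4, and none exceeded 0.608 CPM in any library.

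**Figure D1:**
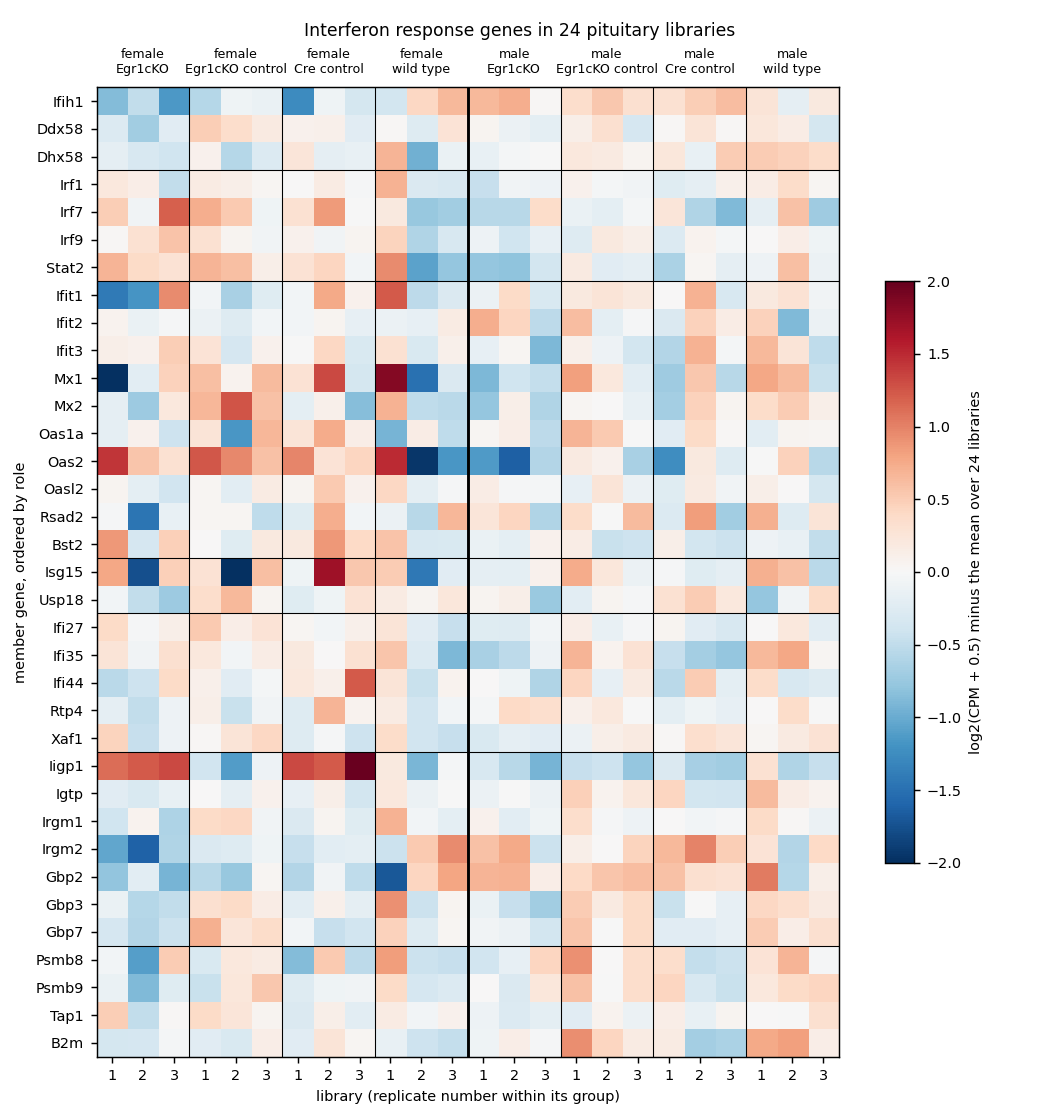
Each cell shows the level of 1 member in 1 library as log2(CPM + 0.5) minus the member's mean over the 24 libraries, with females left of the heavy line and members ordered by role. Iigp1 was high in the 6 female libraries that carried Cre, and Oas2 and Stat2 were low in female wild type replicates 2 and 3.

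Some libraries stood apart from their group, which bears on several results. Female wild type replicates 2 and 3 lay with the males on the first principal component of 11748 genes, which held 39.1% of the variance, and male wild type replicate 2 lay within the range of the other 10 females. Mitochondrially encoded genes took 2.14% and 2.7% of their counts, against 3.5% to 10.4% in the other 10 female libraries and 2.08% to 4.80% in males. Female wild type replicate 1 had a share of 10.1%. Of the 35 members, 27 were above their own median in female wild type replicate 1, against 5 in replicate 2 and 13 in replicate 3. Total counts ranged from 15486069 to 26255343. The labels do not say that each library came from a separate animal, so a p-value here covers the spread among libraries, which may be technical. In whole tissue, fewer cells of a type and less RNA per cell cannot be told apart.

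Iigp1 was higher in every female library that carried Cre, with or without floxed Egr1, and no other member was called higher in both comparisons. Iigp1 (ENSMUSG00000054072, GRCm38 chromosome 18, 60376027 to 60392634, plus strand) encodes an interferon-inducible immunity-related GTPase that in mice coats the vacuoles of intracellular parasites. It measured 37.8, 40.9 and 43.3 CPM in female Egr1cKO libraries, against 13.0, 7.67 and 16.0 CPM in female Egr1cKO controls. Female Cre controls had 43.6, 40.7 and 69.1 CPM, against 19.7, 8.86 and 16.7 CPM in female wild type. The groups of each pair did not overlap, and the lowest of the 6 female Cre carriers lay above the highest of the other 18 libraries, at 37.8 against 21.3 CPM. The Egr1cKO effect, Egr1cKO against Egr1cKO control, was a log2 fold change of 1.73 in females (standard error 0.31 and edgeR adjusted p = 0.00286). The Cre effect, which sets Cre controls against wild type, was 1.76 in females (standard error 0.30 and edgeR adjusted p = 0.00477). These were 3.32-fold and 3.39-fold differences in sets of libraries that share no sample.

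Iigp1 was not called in either male comparison. Iigp1 measured 13.6, 11.5 and 8.75 CPM in male Egr1cKO and 12.3, 12.8 and 9.78 CPM in male Egr1cKO controls. Male Cre controls had 14.0, 10.7 and 10.4 CPM, and male wild type had 21.3, 11.1 and 12.4 CPM. The male groups overlapped, with log2 fold changes of -0.045 for the Egr1cKO effect (standard error 0.30 and edgeR adjusted p = 1) and -0.35 for the Cre effect (standard error 0.30 and edgeR adjusted p = 0.73). The difference between the sexes was tested as an interaction. It was 2.11 for the Cre effect (standard error 0.43 and edgeR adjusted p = 0.0358), in a test that called 0.128% of all genes, 0.0638% with a positive value, and no other member. For the Egr1cKO effect it was 1.78 (standard error 0.43 and edgeR adjusted p = 0.207), where edgeR called 0 members and 0.0228% of all genes. There 3 members had an unadjusted p under 0.05, DESeq2 called 1, which was Iigp1, and limma called 0. Within carriers, females exceeded males by a log2 fold change of 1.85 in Egr1cKO (edgeR adjusted p = 0.000653) and 2.13 in Cre controls (edgeR adjusted p = 0.000222). In the Cre-free groups the female against male values were 0.073 in Egr1cKO controls (edgeR adjusted p = 0.961) and 0.019 in wild type (edgeR adjusted p = 1).

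**Figure D2:**
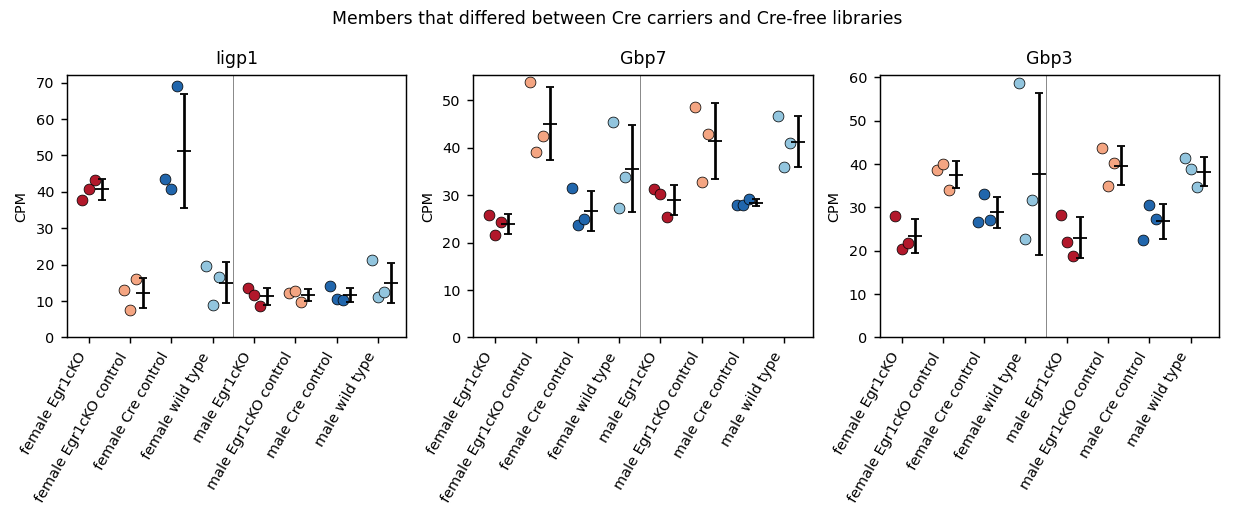
Points show the CPM of Iigp1, Gbp7 and Gbp3 in each library, by group, and the horizontal marks with bars show the group mean ± SD (n = 3). Female Cre carriers had 37.8 to 69.1 CPM of Iigp1, and Gbp7 and Gbp3 had lower means in Cre carriers than in the Cre-free group of the same pair in both sexes.

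The Iigp1 call in Egr1cKO females was kept in every alternative run, with log2 fold changes between 1.49 and 1.97. The Cre call in females was lost in the fit restricted to the groups compared (edgeR adjusted p = 0.306) and without female Cre control replicate 3 (log2 fold change 1.48, edgeR adjusted p = 0.0553). The interaction with Cre was lost in 9 of 24 fits that left out 1 library and in the fit restricted to the groups compared. It was also lost without female wild type replicates 2 and 3, a fit that leaves 1 library in that group. Its log2 value stayed between 1.77 and 2.34 in the fits that left out 1 library. The mitochondrial share moved with Iigp1 in part. It was 8.73% to 10.4% in female Egr1cKO, against 3.5% to 6.87% in female Egr1cKO controls, without overlap. It was 5.52% to 6.69% in female Cre controls, against 10.1%, 2.14% and 2.7% in female wild type. Every female carrier had a higher share than every male library, of which the highest was at 4.80%. With the share as a covariate Iigp1 was still called in both female comparisons.

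Immune cell markers were measured beside Iigp1. The summed level of 14 macrophage and microglia markers was 198 to 299 CPM in female Egr1cKO and 114 to 214 CPM in female Egr1cKO controls, and 188 to 276 CPM in female Cre controls and 146 to 230 CPM in female wild type. Both ranges overlapped, and 0 of the 14 markers were called by edgeR in either comparison, with 6 and 1 at an unadjusted p under 0.05. Of all 21927 genes tested, 4227 and 3680 had such a p, and 2.21% and 1.21% were called. Lymphocyte markers summed to 7.15 to 9.35 CPM in female Egr1cKO and 4.30 to 10.7 CPM in its controls, and to 5.79 to 12.4 CPM in female Cre controls and 6.06 to 7.96 CPM in female wild type. Plasmacytoid dendritic cell markers summed to 166 to 175 CPM in female Egr1cKO and 125 to 157 CPM in its controls, and to 140 to 156 CPM in female Cre controls and 129 to 165 CPM in female wild type. The Egr1cKO pair did not overlap in this sum, and 0 of its 5 markers were called by edgeR, with 1 at an unadjusted p under 0.05. Of these markers, Siglech and Irf8 did not exceed 7.53 and 13.8 CPM in any library, so others made up most of the sum. Siglech alone overlapped in the Egr1cKO pair, at 3.09 to 7.53 against 1.53 to 3.12 CPM. The summed level of 5 neutrophil markers had a median of 19.9 CPM in female Egr1cKO and 6.48 CPM in its controls, and these ranges overlapped. In female Cre controls this sum was lower without overlap, at 4.25 to 6.79 CPM against 8.20 to 12.1 CPM in female wild type. Ly6g, which marks neutrophils, had no count in the 6 female Cre carriers. It also had none in female Egr1cKO controls and at most 0.188 CPM in female wild type, so it does not tell these groups apart. The T cell gene Cd3e stayed at or below 1.50 CPM. Of 10 pituitary endocrine markers, 3 were called in Egr1cKO females. Pomc, the corticotrope and melanotrope precursor, was higher (2.69), and Pou1f1, a pituitary transcription factor (-1.82), and Prl, prolactin (-1.57), were lower. In Cre control females Tshb (1.77) and Cga (1.51), subunits of thyrotropin, were higher. The part of these cells in the Iigp1 result was not tested.

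No gene near Iigp1 was called higher with it. Within 500 kb, a window chosen after the Iigp1 values were seen, none of the other tested genes was called higher in either female comparison. Its relatives Gm4951 (-2.41, edgeR adjusted p = 0.101) and F830016B08Rik (-2.20, edgeR adjusted p = 0.324) had negative log2 fold changes in Egr1cKO females and were not called. In Cre control females they had -0.95 (edgeR adjusted p = 0.548) and 1.25 (edgeR adjusted p = 0.646). Gm4841, also in the window, had positive values in both, 1.35 in Egr1cKO females (edgeR adjusted p = 0.611) and 0.77 in Cre control females (edgeR adjusted p = 0.823). The means of these genes in female carriers and Cre-free females were only 0.558 to 2.12 CPM. Cd74, the class II invariant chain, had a log2 fold change of 0.65 in Egr1cKO females (edgeR adjusted p = 0.223) and 0.041 in Cre control females (edgeR adjusted p = 0.97). Ndst1, a heparan sulfate enzyme, was the only neighbour called, and it was lower in Cre control females (-0.80, edgeR adjusted p = 0.0395). Iigp1 and its relatives have similar sequences, so reads may be split between them.

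Gbp7 and Gbp3, neighbouring guanylate-binding protein genes on chromosome 3, were lower in Cre carriers. These GTPases are induced by interferon and help to break pathogen vacuoles. Gbp7 (ENSMUSG00000040253, 142530342 to 142550149) measured 25.8, 21.6 and 24.3 CPM in female Egr1cKO, against 53.8, 39.0 and 42.4 CPM in female Egr1cKO controls. These groups did not overlap, and the log2 fold change was -0.91 (standard error 0.20 and edgeR adjusted p = 0.0148). Female Cre controls had 31.5, 23.6 and 25.0 CPM of Gbp7, against 45.5, 27.3 and 33.8 CPM in female wild type. Here the groups overlapped, with a log2 fold change of -0.41 (standard error 0.20 and edgeR adjusted p = 0.296). In males Gbp7 had 31.4, 30.2 and 25.4 CPM in Egr1cKO, against 48.5, 32.7 and 42.9 CPM in Egr1cKO controls. Male Cre controls had 28.0, 27.9 and 29.2 CPM, against 46.7, 36.0 and 41.1 CPM in male wild type. Neither male pair overlapped. Neither male value passed the test, at -0.51 for the Egr1cKO effect (edgeR adjusted p = 0.616) and -0.54 for the Cre effect (edgeR adjusted p = 0.337).

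Averaged over both sexes and both Egr1 alleles, Cre carriers against Cre-free libraries gave a log2 fold change of -0.59 for Gbp7 (standard error 0.10 and edgeR adjusted p = 0.00038). The 12 carriers ran from 21.6 to 31.5 CPM with a median of 26.9, against 27.3 to 53.8 CPM with a median of 41.7 in the 12 Cre-free libraries. The ranges overlapped only through the lowest Cre-free library, which was female wild type replicate 2. Gbp7 in Egr1cKO females lost its call without female Egr1cKO control replicate 1, female Egr1cKO replicate 2 or female Egr1cKO replicate 3, where the edgeR adjusted p reached 0.0822. Its averaged call was kept in every alternative, with values from -0.68 to -0.54. An annotated pseudogene, Gm43802, covers 11.3% of the Gbp7 exons, and how reads there were assigned is not known.

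Gbp3 (ENSMUSG00000028268, 142560026 to 142573209) gave the same averaged value, -0.59 (standard error 0.12 and edgeR adjusted p = 0.00282). It measured 27.9, 20.5 and 21.8 CPM in female Egr1cKO, against 38.5, 40.1 and 34.1 CPM in female Egr1cKO controls. Female Cre controls had 26.6, 33.0 and 27.1 CPM, against 58.7, 22.7 and 31.8 CPM in female wild type, where the ranges overlapped. Male Egr1cKO had 28.2, 22.1 and 18.9 CPM, against 43.8, 34.9 and 40.4 CPM in male Egr1cKO controls. Male Cre controls had 22.5, 30.6 and 27.3 CPM, against 41.3, 38.8 and 34.8 CPM in male wild type. All 6 male carriers lay below all 6 male Cre-free libraries, although no single pair was called. The smallest edgeR adjusted p of the 4 pairs was 0.127, in Egr1cKO females. The averaged Gbp3 call was kept in every alternative, with values from -0.75 to -0.47.

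Beside the Gbp values, 7 of 10 pituitary endocrine markers were also called in the averaged Cre comparison, which called 6.89% of all genes. Prl (-2.17), Gh (-1.13) and Pou1f1 (-0.97) were lower and Pomc (1.44), Tshb (0.93), Cga (0.64) and Tbx19 (0.60) were higher. Of the macrophage markers, 1 of 14 was called, near the share over all genes. It was C1qa, which was higher (0.52, edgeR adjusted p = 0.028). Of 8 endothelial markers, Emcn was higher (0.34, edgeR adjusted p = 0.0352). Their part in the lower Gbp7 and Gbp3 was not tested.

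Few members were called with Egr1cKO or Cre, and their median lay below that of all genes except in Cre control females. In Egr1cKO females, 1 member was higher (Iigp1), 1 was lower (Gbp7) and 33 did not pass, in a comparison that called 2.21% of all 21927 genes tested, 0.762% higher and 1.45% lower. The median log2 fold change of the members was -0.15, against -0.048 over all genes. In Cre control females only Iigp1 was called, in a comparison that called 1.21% of all genes and 0.369% higher. The median was -0.030, against -0.037 over all genes. In males edgeR called 0 members for the Egr1cKO effect, which called 0.041% of all genes, with 4 members at an unadjusted p under 0.05 and 0 called by DESeq2 or limma. For the Cre effect in males edgeR also called 0, where it called 0.233% of all genes. There 4 members had an unadjusted p under 0.05, DESeq2 called 2 and limma 0. The male medians were -0.24 for the Egr1cKO effect and -0.19 for the Cre effect, against 0.028 and 0.014 over all genes. The averaged Cre comparison called 6.89% of all genes, 2.8% higher and 4.08% lower. It called 3 members, Iigp1 higher and Gbp7 and Gbp3 lower. Of the 35 members, 26 had a negative value there, with a median of -0.16, against -0.034 over all genes, of which 45.7% were positive.

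**Figure D3:**
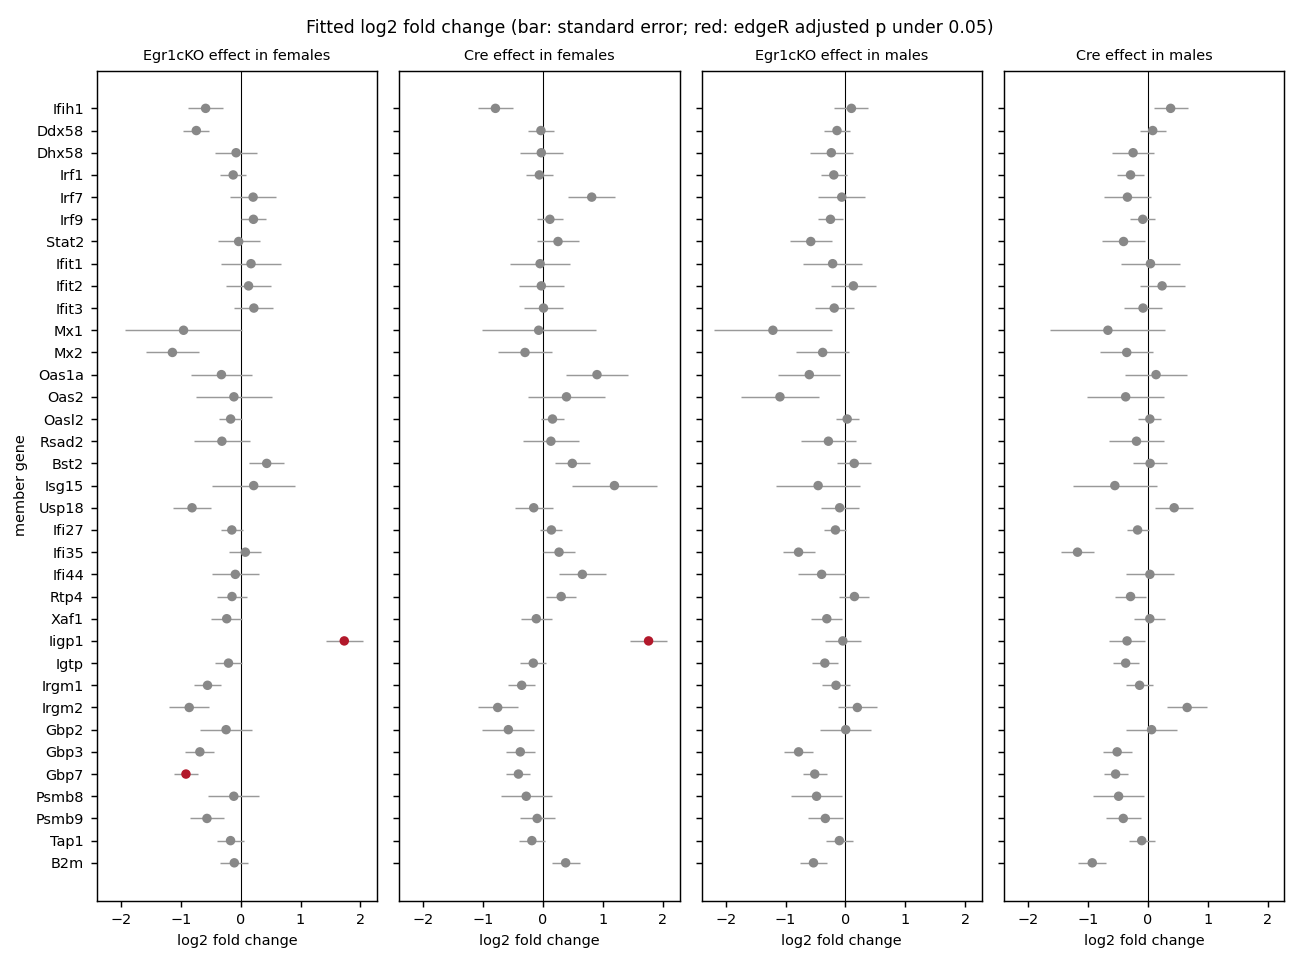
Points give the fitted log2 fold change of each member in the 4 comparisons within a sex (Egr1cKO against Egr1cKO control, and Cre control against wild type), with bars of 1 standard error and red for an edgeR adjusted p under 0.05. Iigp1 was called in both female comparisons and Gbp7 in Egr1cKO females, and no member was called in males.

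The count in the averaged Cre comparison changed with the mitochondrial share as a covariate. It was then 10 of the 35 members, with 1 higher and 9 lower. Over all 21927 genes tested, the covariate gave 2196 higher and 2043 lower, against 615 and 895 without it. It added B2m, Stat2, Irgm1, Irf1, Ifi35, Mx2 and Psmb9 to the 3 members. In Egr1cKO females the covariate gave 8 members, of which Iigp1 alone was higher and 7 were lower. Over all genes 1645 were higher and 1436 lower there, against 167 and 317 without it. Leaving out female wild type replicates 2 and 3 leaves 1 library in that group, so counts from that fit are not given. The Egr1cKO and Cre effects of a sex come from different libraries. They had the same sign for 24 of 35 members in females (68.6%, against 61.8% of all genes). In males this held for 28 of 35 (80%, against 68.1% of all genes). Of these members, 17 in females and 22 in males were negative in both effects, and 7 and 6 were positive in both.

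Among the nucleic acid sensors, no Egr1cKO or Cre value passed. Ddx58, which encodes RIG-I, measured 18.9, 13.9 and 19.6 CPM in female Egr1cKO, against 32.3, 29.4 and 25.9 CPM in female Egr1cKO controls. The groups did not overlap, but the log2 fold change of -0.74 missed the threshold (standard error 0.22 and edgeR adjusted p = 0.0646). In female Cre controls its value was -0.036. Ddx58 was called in Egr1cKO females by DESeq2. Ifih1 had log2 fold changes of -0.59 for Egr1cKO females (edgeR adjusted p = 0.264) and -0.80 for Cre control females (edgeR adjusted p = 0.156). Dhx58, whose product LGP2 tunes both sensors, had group means from 4.65 to 8.11 CPM.

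The transcription factors of the response were measured in every library and none was called with Egr1cKO or Cre. Irf1, which binds the same elements as other interferon regulatory factors, had group means from 39.5 to 52.1 CPM. Irf9, the DNA-binding partner of STAT2, ran from 40.8 to 59.1 CPM. Irf7, an amplifier of interferon production, ran from 9.92 to 20.1 CPM and had a log2 fold change of 0.81 in Cre control females that did not pass (edgeR adjusted p = 0.295). Of the 4 factors, 0 were called by edgeR, DESeq2 or limma in the 4 comparisons within a sex, with 1 at an unadjusted p under 0.05, which was this value of Irf7.

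No antiviral effector was called by edgeR, DESeq2 or limma with Egr1cKO or Cre within a sex. Ifit1, which binds foreign RNA, ran from 3.47 to 24.2 CPM across libraries, although its group means were 8.13 to 13.1 CPM. Its relatives Ifit2 and Ifit3 had group means of 5.25 to 7.33 and 12.5 to 18.4 CPM. Mx2, annotated as a polymorphic pseudogene, measured 3.72, 2.41 and 5.05 CPM in female Egr1cKO, against 7.10, 11 and 6.67 CPM in female Egr1cKO controls. Those groups did not overlap, and the log2 fold change of -1.14 was not called (standard error 0.45 and edgeR adjusted p = 0.163). Oasl2, an oligoadenylate synthetase-like protein, ran from 56.3 to 74.6 CPM in group means. Rsad2, or viperin, ran from 4.48 to 8 CPM and Oas1a from 2 to 3.83 CPM.

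The remaining induced proteins gave no edgeR call with Egr1cKO or Cre, and the closest was Ifi35 in males. Ifi35, an interferon-induced leucine zipper protein, was singled out after its values were seen. It measured 20.4, 17.5 and 16.3 CPM in male Cre controls, against 44.8, 48.6 and 29.0 CPM in male wild type. It measured 17.8, 19.5 and 26.3 CPM in male Egr1cKO, against 45.4, 29.7 and 34.6 CPM in male Egr1cKO controls. Neither pair overlapped, and both values missed the threshold, at -1.18 for Cre (standard error 0.27 and edgeR adjusted p = 0.0582) and -0.78 for Egr1cKO (standard error 0.27 and edgeR adjusted p = 0.553). DESeq2 called Ifi35 lower for Cre in males. In females the values were 0.27 for Cre and 0.078 for Egr1cKO. The libraries are unstranded, and 16.8% of the Ifi35 exons overlap the antisense gene Gm11626, so their reads cannot be told apart. Usp18, the protease that removes ISG15 and dampens receptor signalling, had group means of 5.82 to 10.2 CPM. Isg15 had a log2 fold change of 1.19 in Cre control females with a large error (standard error 0.70 and edgeR adjusted p = 0.41). Ifi44 ran from 4.77 to 8.71 CPM in group means, Rtp4, a receptor transport protein, from 11.1 to 15.9 CPM and the apoptosis factor Xaf1 from 10.5 to 14.7 CPM.

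Of the 7 GTPase members, 6 had negative log2 fold changes in both female comparisons and in the averaged Cre comparison, the exception being Iigp1. Of all genes, 46.2% were positive in Egr1cKO females, 47.4% in Cre control females and 45.7% in the averaged Cre comparison. Irgm1, a regulator of the vacuole-attacking GTPases, had group means from 27.4 CPM in female Egr1cKO to 40.2 CPM in female Egr1cKO controls. Its value in Egr1cKO females was -0.55 (edgeR adjusted p = 0.181). Igtp, a regulator of the same family, ran from 21.1 to 30.7 CPM and shares 162 exon bases with Irgm2. Irgm2 had -0.86 in Egr1cKO females (edgeR adjusted p = 0.163) and -0.76 in Cre control females (edgeR adjusted p = 0.243), and positive values of 0.20 and 0.66 in males.

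The antigen presentation members were not called by edgeR with Egr1cKO or Cre. All 4 had negative averaged Cre values, where 45.7% of all genes were positive. B2m came closest in males. It measured 297, 165 and 171 CPM in male Cre controls, against 447, 467 and 293 CPM in male wild type. The groups overlapped at 297 and 293 CPM, and the log2 fold change of -0.93 missed the threshold (standard error 0.23 and edgeR adjusted p = 0.0868). DESeq2 called it lower. B2m was singled out here after its values were seen. Psmb8 and Psmb9, subunits of the immunoproteasome, had group means of 10.7 to 16.9 and 11.1 to 18.7 CPM. Tap1, which carries peptides into the endoplasmic reticulum, ran from 16.6 to 22.4 CPM and shares 212 exon bases with Psmb9.

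No member was called for floxed Egr1 without Cre. Egr1cKO control against wild type called 0 members in either sex by edgeR, DESeq2 or limma. Over all genes edgeR and limma called 0% in either sex, and DESeq2 called 418 genes in females and 2 in males. There were 3 members in females and 0 in males at an unadjusted p under 0.05. These groups also differ in the number series of their titles. Without female wild type replicate 1 the female count was 9 members, in a fit that called 4248 genes in all. The Egr1cKO effect beyond the Cre effect, the difference of both effects within a sex, called 0 members in females (0.00456% of all genes) and 0 in males (0% of all genes) by edgeR, and 0 by DESeq2 and limma. It had 1 and 0 members at an unadjusted p under 0.05. For Iigp1 in females this difference was -0.032 (standard error 0.42 and edgeR adjusted p = 1).

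Pathway genes outside the 35 members gave few calls with Egr1cKO or Cre. Of 119 such genes in the table, 112 were tested. Isg20, an exonuclease induced by interferon, was lower in Egr1cKO females (-1.23, SE 0.26, edgeR adjusted p = 0.0103) and in Cre control males (-1.29, SE 0.26, edgeR adjusted p = 0.0282). It averaged 12.7 CPM in female Egr1cKO against 29.9 CPM in female Egr1cKO controls, and 20.0 CPM in male Cre controls against 49.1 CPM in male wild type. It was the only pathway gene called in the 4 comparisons within a sex. In the averaged Cre comparison 1 was higher and 6 were lower of 112, close to the 6.89% called among all genes. Isg20 (-0.99), Zbp1, a sensor of Z-form nucleic acid (-0.85), the GTPases Gbp4 (-0.83) and Gbp9 (-0.42), and Uba7, the enzyme that activates ISG15 (-0.59), had the smallest p of the lower genes. Their edgeR adjusted p ran from 1.22e-05 for Isg20 to 0.0126 for Gbp9. Ikbke, an interferon-inducing kinase (-0.64, edgeR adjusted p = 0.0165), was also lower. Ifnar2, a chain of the type I interferon receptor, was higher (0.40, SE 0.12, edgeR adjusted p = 0.0486).

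Several members differed between females and males, at about the share called among all genes, and these calls moved with the mitochondrial share of the libraries. Averaged over genotypes, 3 members were higher in females (Iigp1, Oas2 and Bst2) and 4 were lower (Ifih1, Irgm2, Gbp2 and B2m), in a comparison that called 21.7% of all genes, 9.99% higher and 11.7% lower. In Egr1cKO, 3 were higher in females (Iigp1, Oas2 and Stat2) and 2 lower (Ifih1 and Irgm2), where 13.1% of all genes were called, 5.49% higher and 7.57% lower. Only Iigp1 was called in Cre controls, where 3.61% of all genes were called and 1.6% were higher. In Egr1cKO controls and in wild type edgeR called 0 members, against 0.451% and 0.283% of all genes. There 4 and 2 members had an unadjusted p under 0.05, DESeq2 called 0 and 1, and limma 0 and 0.

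Oas2, which makes the oligoadenylate that activates RNase L, measured 16.4, 8.67 and 7.20 CPM in female Egr1cKO, against 2.34, 1.53 and 3.68 CPM in male Egr1cKO. These groups did not overlap, and the log2 fold change was 2.09 (standard error 0.66 and edgeR adjusted p = 0.0407). That call was lost in 11 of 24 fits that left out 1 library. Female Egr1cKO controls had 14.3, 11.7 and 8.93 CPM, and male Egr1cKO controls had 6.58, 6.11 and 3.47 CPM. Female Cre controls had 11.8, 7.04 and 7.95 CPM, and male Cre controls had 2.15, 6.63 and 4.74 CPM. Each of these pairs was also without overlap. Female wild type had 17.1, 1.13 and 2.29 CPM, and male wild type had 5.74, 8.08 and 3.74 CPM. Here replicate 1 was the highest of all libraries and replicate 2 the lowest. The averaged value was 1.10 (standard error 0.32 and edgeR adjusted p = 0.0175), and without female wild type replicate 1 it was 0.60 and not called (edgeR adjusted p = 0.0509).

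Stat2 followed the same order of libraries. It measured 81.3, 66.2 and 61.9 CPM in female Egr1cKO, against 29.4, 28.7 and 39.2 CPM in male Egr1cKO, without overlap. The log2 fold change was 1.10 (standard error 0.36 and edgeR adjusted p = 0.0446), and 18 of 24 fits that left out 1 library did not call it. Female wild type had 98.2, 23.9 and 29.4 CPM, so that the group held both the highest and the lowest library. The averaged value for Stat2 was 0.49 and missed the threshold (standard error 0.18 and edgeR adjusted p = 0.051).

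Ifih1, Irgm2 and Gbp2 ran the other way. Ifih1 measured 9.54, 12.5 and 7.76 CPM in female Egr1cKO, against 28.3, 29.7 and 18.2 CPM in male Egr1cKO. The groups did not overlap, and the log2 fold change was -1.35 (standard error 0.29 and edgeR adjusted p = 0.00513). Over all genotypes Ifih1 ran from 7.19 to 28.2 CPM with a median of 13.8 in females, against 15.7 to 29.7 CPM with a median of 22.5 in males. The averaged value was -0.70 (standard error 0.14 and edgeR adjusted p = 0.00129). Its highest female libraries were female wild type replicates 2 and 3, at 23.9 and 28.2 CPM. The other 10 female libraries stayed between 7.19 and 16.7 CPM.

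Irgm2 measured 7.36, 4.76 and 10.1 CPM in female Egr1cKO, against 23.8, 26.8 and 11.5 CPM in male Egr1cKO. The groups did not overlap, and the log2 fold change was -1.48 (standard error 0.34 and edgeR adjusted p = 0.0078), and it was not called without male Egr1cKO replicate 2 (edgeR adjusted p = 0.0565). Over all genotypes it ran from 4.76 to 30.7 CPM in females with a median of 12.9, against 10.2 to 31.6 CPM in males with a median of 21. The averaged value was -0.64 (standard error 0.17 and edgeR adjusted p = 0.00793). Female wild type replicates 2 and 3 had 22.6 and 30.7 CPM, above the range of 4.76 to 14.7 CPM in the other 10 females.

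Gbp2, a guanylate-binding protein, had an averaged value of -0.77 (standard error 0.22 and edgeR adjusted p = 0.0132). It ran from 3.21 to 20.3 CPM in females with a median of 7.77, against 7.54 to 24.2 CPM in males with a median of 16.1. Female wild type replicates 2 and 3 were again the highest females, at 15.7 and 20.3 CPM, and replicate 1 was the lowest of all libraries.

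**Figure D4:**
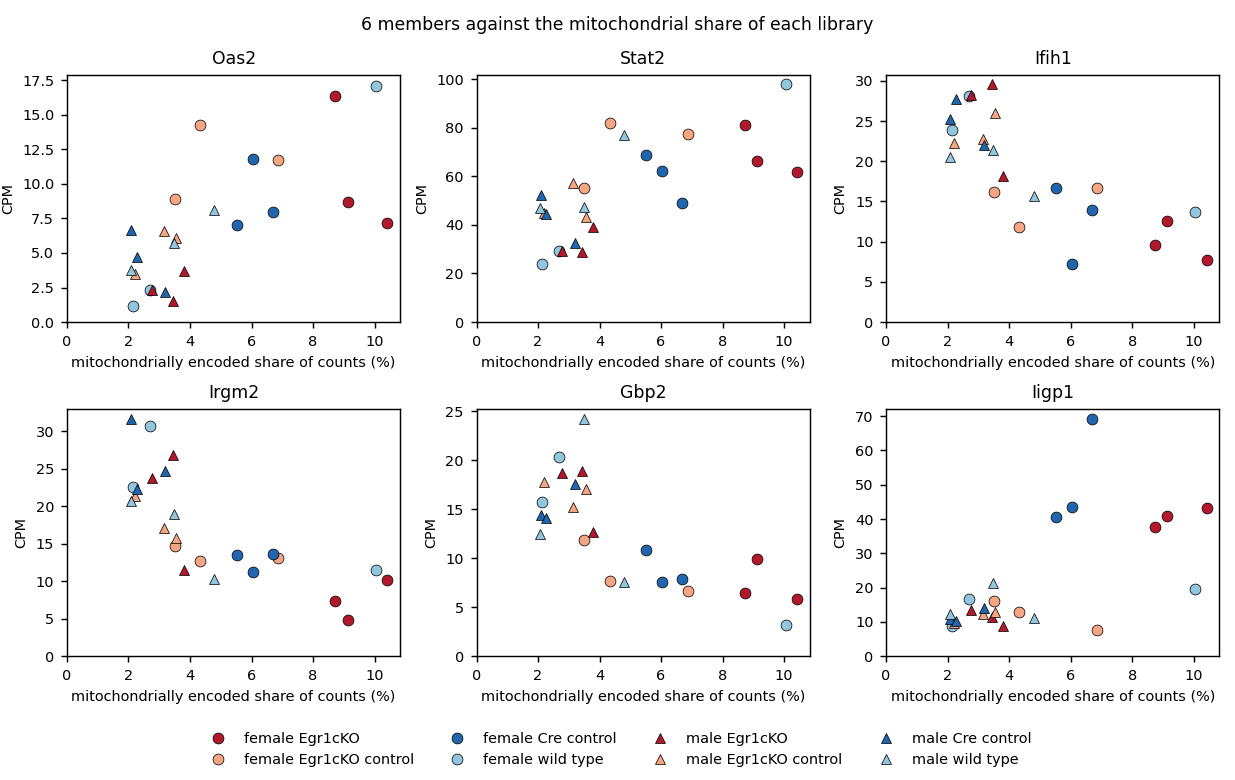
Each point is 1 library, with the mitochondrially encoded share of its counts in percent on the horizontal axis and the CPM of 6 members on the vertical axis, circles for females and triangles for males. Oas2 and Stat2 tended to be low and Ifih1, Irgm2 and Gbp2 high at low shares, female wild type replicates 2 and 3 included, whereas Iigp1 was high in the 6 female Cre carriers at shares of 5.52% to 10.4%.

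B2m was lower in females, with an averaged value of -0.37 (standard error 0.12 and edgeR adjusted p = 0.0236). It was not called without male Cre control replicate 1 (edgeR adjusted p = 0.0515) or male Egr1cKO control replicate 1 (edgeR adjusted p = 0.0546). Females ran from 191 to 319 CPM with a median of 226, against 165 to 507 CPM with a median of 295 in males. The male Cre-free libraries stood highest, at 293 to 507 CPM, against 165 to 297 CPM in male carriers. Bst2 was higher in females, with an averaged value of 0.44 (standard error 0.14 and edgeR adjusted p = 0.0305). It ran from 14.8 to 34.9 CPM with a median of 21.7 in females, against 13.2 to 20.9 CPM with a median of 16.7 in males, and the ranges overlapped. Its call was lost in 11 of 24 fits that left out 1 library, with an edgeR adjusted p of up to 0.0726.

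With the mitochondrial share as a covariate, 1 of the 7 averaged calls remained, Iigp1 (edgeR adjusted p = 0.0199), and the value of Oas2 became -0.22 and that of Gbp2 0.074. None of the 5 calls in Egr1cKO remained under that covariate, where the edgeR adjusted p of Iigp1 was 0.0656. Calls among all genes fell as well, from 4761 to 596 averaged over genotypes and from 2863 to 215 in Egr1cKO. The fit without female wild type replicates 2 and 3 leaves 1 library in that group, so its counts are not given. Outside those 2 libraries the share was 3.5% to 10.4% in females, against 2.08% to 4.80% in males, so that sex and this share overlap little.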

How the data were processed

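RNA from 24 mouse pituitary samples was sequenced, per the labels' protocols, from poly(A)-selected, unstranded libraries. Raw counts per Ensembl gene were used as the authors deposited them. Per the submitters' processing notes, Trim Galore 3.8.2, FastQC, STAR 2.7.9 and GRCm38 were used, and the counting step is not described there. Reads of similar family members (Gbp, Ifit, Oas and Irgm genes) may have been split or dropped, so these genes are uncertain.

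Counts were tested with edgeR 4.0.16 in R 4.3.3: TMM scaling, filterByExpr (21927 of 35191 genes kept), 1 model of 8 group means and the robust quasi-likelihood test. Benjamini-Hochberg adjustment ran over 21927 genes in each of 16 comparisons, with a threshold of 0.05. Alternatives used DESeq2 1.42.0, limma 3.58.1, other filters, a mitochondrial covariate and left-out libraries. The scripts were tested on simulated data. Gene positions came from GENCODE M21.

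The members and gene lists were chosen with earlier results of these data known. Every member called in any comparison is named. Values are given by library in all groups for Iigp1, Gbp7, Gbp3 and Oas2, and in some groups or as ranges for the other members. Up to 5 further pathway genes per comparison are named by smallest p, and up to 4 promoters with an ISRE core are shown. A gene that this rule would name among the pathway genes is not reported here.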

Additional observations from a re-analysis of the deposited data

Results flagged for a closer look

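The Cre effect on Iigp1 differed between females and males, with an interaction of 2.11 on the log2 scale (SE 0.43, edgeR adjusted p = 0.0358). All 3 female Cre controls lay above all 3 female wild type libraries, at 51.1 ± 15.7 against 15.1 ± 5.59 CPM (SD, n = 3 each). In males the groups overlapped, at 11.7 ± 2.01 CPM in Cre controls against 14.9 ± 5.56 CPM in wild type (SD, n = 3 each). Groups of 3 were too small for a test of single outlying libraries.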

How the results depend on the processing

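Of 628 alternative values for 20 gene results, 557 kept direction and side of the threshold, 68 lost the call and 3 reversed, all with the mitochondrial covariate: Gbp2 (0.074) and Oas2 (-0.22) averaged over genotypes, and Stat2 in Egr1cKO (-0.089), female against male. Counts of members called moved as follows, and the cause was not tested. Leaving out female wild type 2 and 3 together, chosen after seeing the data, gave 11 for averaged Cre, 4 for Egr1cKO females, 1 for Egr1cKO males, 3 for Cre females, 2 for Cre males, 1 for sex by Egr1cKO and 0 for sex by Cre. For female against male it gave 8 in Egr1cKO, 4 in Cre controls, 1 in wild type and 12 averaged. The mitochondrial covariate gave 10 for averaged Cre, 8 for Egr1cKO females, 2 for Egr1cKO males, 2 for Cre males, 2 for Egr1cKO beyond Cre in females, 2 for Egr1cKO control against wild type females and 2 for sex by Cre. For female against male it gave 0 in Egr1cKO, 2 in wild type and 1 averaged. Over all genes the covariate called 4239 for averaged Cre, 3081 for Egr1cKO females, 208 for Egr1cKO males and 179 for Cre males. The main fit called 1510, 484, 9 and 51. Egr1cKO beyond Cre in females went from 1 to 1846 and sex by Cre from 28 to 166. Egr1cKO control against wild type females went from 0 to 1497. Female against male went from 2863 to 215 in Egr1cKO, 62 to 378 in wild type and 4761 to 596 averaged. DESeq2 gave 2 for Cre males, 3 for sex by Cre, 1 for sex by Egr1cKO, and 4 in Cre controls and 1 in wild type for female against male. Over all genes DESeq2 called 220 for Cre males, 775 for sex by Cre and 82 for sex by Egr1cKO, against 51, 28 and 5. For female against male it called 1986 in Cre controls and 204 in wild type, against 791 and 62. No filter gave 2 for Cre males, 5 for sex by Cre, 1 for sex by Egr1cKO, 4 in Cre controls and 1 in wild type. Fits of only the groups compared gave 0 for Cre females, 1 for Cre males, 0 for sex by Cre and 5 in Cre controls. Both limma and the 10 CPM filter gave 2 in Cre controls. Leaving out 1 library gave 3 to 5 for averaged Cre, 1 to 4 for Egr1cKO females, 0 to 1 for Egr1cKO males, 0 to 8 for Cre females, 0 to 2 for Cre males, 0 to 7 for sex by Cre, 0 to 2 for Egr1cKO beyond Cre in females and 0 to 9 for Egr1cKO control against wild type females. For female against male it gave 2 to 8 in Egr1cKO, 1 to 5 in Cre controls and 0 to 4 in wild type. The counts of 8 and 9 came without female wild type replicate 1. Over all genes that fit called 3603 for Cre females and 4248 for Egr1cKO control against wild type females, against 265 and 0. For sex by Cre it called 4339 against 28, and for Egr1cKO beyond Cre in females 1282 against 1. For female against male in Egr1cKO it called 4935 against 2863. No paired analysis was possible because the titles number libraries individually and replicate numbers follow accession order. The median coefficient of biological variation was 0.337 with 3 libraries a group, which limits the precision.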

Other observations

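Of the 112 tested pathway genes outside the members, 8 were higher and 22 lower in females than in males, averaged over genotypes, in a comparison that called 21.7% of all genes. Among those with the smallest p, 4 that were lower in females were the peptide loading chaperone Tapbp (-0.51), the receptor kinase Jak1 (-0.59), the phosphatase Ptpn11 (-0.58) and the peptide-trimming enzyme Erap1 (-0.53). Their edgeR adjusted p ran from 0.000112 for Tapbp to 0.00152 for Erap1. Interferon receptor genes had counts in all 24 libraries, with Ifnar1 at 38.7 to 61.7 CPM, Ifnar2 at 10 to 21.2 CPM and Ifngr1 at 19.0 to 38.2 CPM.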
